A study of Vitis vinifera with 36 samples.

Results

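A pair of veraison stages was compared within the winter crop of the red grape cultivar Cabernet Sauvignon (“CS”), 3 libraries of E-L 36 against 3 libraries of E-L 35, which are 6 of the 36 RNA-seq libraries of the series. E-L 36, here the end of veraison, and E-L 35, its onset, are numbers of the modified Eichhorn-Lorenz scale of vine growth. The 6 libraries are those labelled as winter berries of CS at these stages, and all genes were compared between them. Berries were deseeded, so that each library holds RNA of skin and flesh together. The vines were 7 years old, grafted on SO4 rootstock and grown under a rain shelter in southern China, and each of the 3 biological replicates of a stage pooled 50 berries. In the double cropping system the same vines carry a summer and a winter crop within one year, here 2014. The winter crop follows a pruning in August, with defoliation by hand and hydrogen cyanamide on the terminal bud and near the pruning wound. The summer crop follows a pruning in mid-February, with hydrogen cyanamide but none on the terminal bud. The treatments of a crop were shared by both of its stages. Further comparisons of the same stages served as a contrast, namely the CS summer crop and the winter crop of “Riesling”, a white cultivar, each with 3 libraries of E-L 36 against 3 of E-L 35.

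At veraison a red berry softens, takes up sugar and begins to colour. Anthocyanins are made in the skin by the phenylpropanoid and flavonoid pathway, in which PAL, C4H and 4CL turn phenylalanine into coumaroyl-CoA, CHS, CHI and F3H build the flavonoid skeleton, F3′H and F3′5′H hydroxylate its B-ring, and DFR, LDOX and UFGT lead to the coloured glucosides. FLS diverts the same precursors to flavonols, LAR and ANR to flavan-3-ols, and stilbene synthases compete with CHS for substrate. Abscisic acid (ABA) is known to promote ripening of grape, a non-climacteric fruit in which ethylene has a smaller part, and auxin is known to delay it.

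The total of the expected counts, the reads assigned to genes, was 9835923, 14357895 and 22539442 at E-L 36, against 11637236, 9896930 and 11320896 at E-L 35. A count of 3, used here as the lower limit of detection, corresponds to 0.133 to 0.305 CPM at E-L 36 and 0.258 to 0.303 CPM at E-L 35. The log2 FPKM of pairs of libraries within a stage correlated with r between 0.9873 and 0.9945 across genes, and no pair was alike enough to be 1 library deposited repeatedly. The most abundant transcript took 5.99 to 6.52% of the counts at E-L 36 and 3.12 to 3.90% at E-L 35. In the fit the libraries were scaled by TMM factors, which were 0.866 to 0.883 at E-L 36 and 0.97 to 0.981 at E-L 35. As the deposited FPKM lack this scaling, the log2 ratio of FPKM lay below the fitted log2 fold change by a median of 0.16 over the 9990 genes with a mean of at least 5 FPKM at both stages. *VviUFGT*, *Vvi3AT*, *VviMYBA1* and *VviMYBA2*, chosen as markers of red skin, were detected in all 6 libraries. Detection alone does not mark coloured skin. White Riesling winter berries at E-L 36 had 81.1 ± 7.15 FPKM of *VviMYBA2*, 9.47 ± 0.735 FPKM of *VviUFGT* and 0.18 ± 0.27 FPKM of *Vvi3AT* (SD, n = 3). In whole berries, more cells of a tissue and more RNA per cell cannot be told apart.

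Between the stages, 762 transcripts rose and 1134 fell at E-L 36, out of 20183 tested. Thus 9.39% of the transcripts tested were called, 3.78% higher and 5.62% lower, in edgeR's quasi-likelihood test with Benjamini-Hochberg adjustment. A call needs an adjusted p no higher than 0.01 together with a 2-fold change or more. At least a 4-fold change was found for 197 of the higher and 339 of the lower transcripts. The 3 libraries of one stage did not overlap with those of the other for 1874 of the 1896 called transcripts, where 53.3% of all transcripts tested did not overlap (26.7% higher, 26.6% lower). The share of higher transcripts among the called was 40.2%, and it was 26.4% on the log2(FPKM + 1) scale in limma, which gave 348 higher and 969 lower. In each of the 6 fits that left out 1 library, 1152 of the 1896 remained called. Levels at harvest, E-L 38, were set beside both stages as mean CPM scaled by the TMM factors. By this measure 205 of the 762 higher transcripts lay above E-L 36 at E-L 38, 452 between both stages and 105 below E-L 35. For the 1134 lower ones, 479 lay below E-L 36 at E-L 38, 532 between the stages and 123 above E-L 35. Replicate 1 of E-L 38 stood apart, with r = 0.9829 and 0.9807 to replicates 2 and 3 in log2 FPKM, against 0.9934 between those. Means at E-L 38 therefore lean on that library.

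The genes described next were grouped by pathway into 12 lists, taken from the tables of the study, which had been drawn up on these samples, so that their direction is not independent evidence. They hold 216 genes, of which 212 passed the filter on low counts, and *VviGT3*, *VviMYBPA2*, *VviMYBC2-L2* and *VviMYB4b* did not. Of the 212, 23 were called higher and 25 lower, 22.6% in all, where 3.78% of all transcripts tested were called higher and 5.62% lower. The median log2 fold change was 0.09 over the lists and -0.00 over all transcripts. Fold changes are fitted log2 values of E-L 36 over E-L 35 with their SE, and adjusted p-values are those of edgeR over all transcripts tested. FPKM are given for replicates 1, 2 and 3 of a stage in that order.

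**Figure D1:**
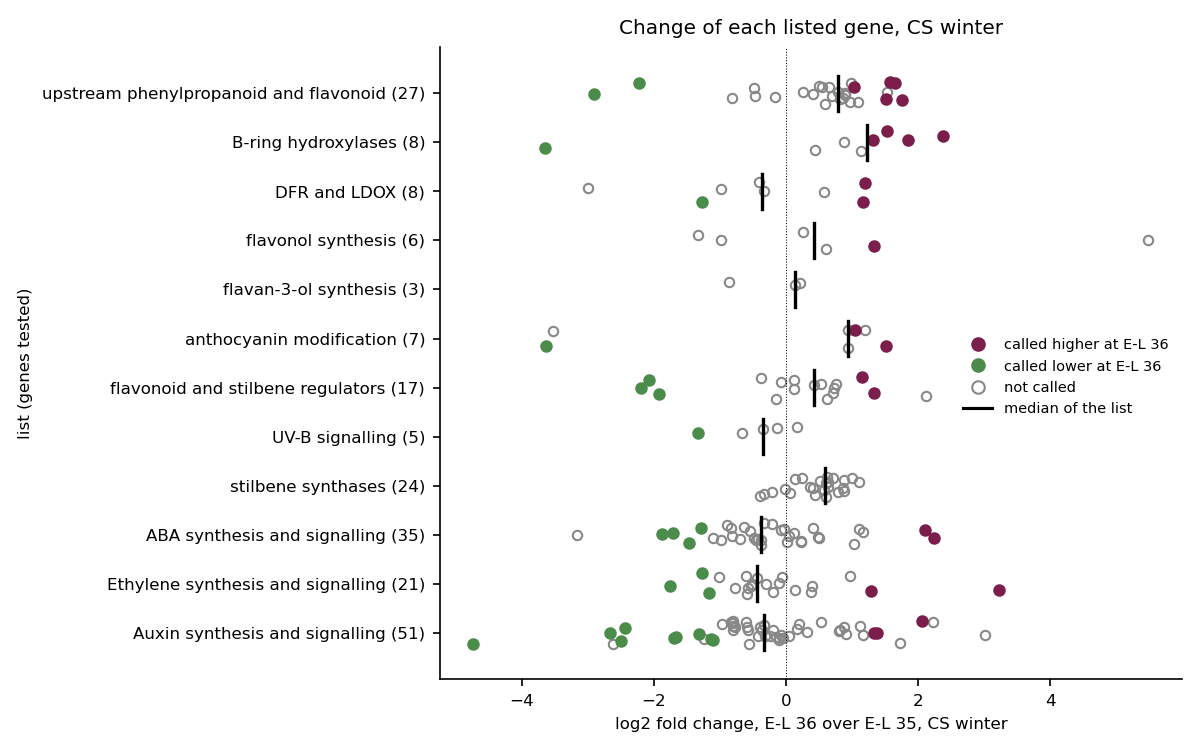
Fitted log2 fold change of E-L 36 over E-L 35 in CS winter berries for the 212 listed genes that were tested, 1 point a gene and 1 row a list, with the number tested in brackets. Filled points were called, open points were not, and the black bar is the median of the list. The upstream and B-ring lists have medians of 0.79 and 1.23, and the 3 hormone lists lie between -0.44 and -0.33.

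Within the upstream phenylpropanoid and flavonoid list, 5 of the 27 genes rose at E-L 36 and 2 fell, and the median log2 fold change was 0.79. The summed level of the list was 2655 ± 99 FPKM at E-L 36 and 1296 ± 46.1 FPKM at E-L 35 (SD, n = 3 each). At E-L 38 it was 1688 ± 611 FPKM, with 2394, 1339 and 1333 FPKM in replicates 1, 2 and 3. *VviCHS3* (VIT_205s0136g00260, chromosome 5, 13597238 to 13599692 in genome 12X V2), a chalcone synthase that commits precursors to flavonoids, had 1008, 1198 and 1099 FPKM at E-L 36, against 388, 403 and 304 FPKM at E-L 35. Every library of E-L 36 lay above every library of E-L 35, and the gene rose by 1.75 ± 0.37 on the log2 scale (adjusted p = 0.000503, edgeR). At E-L 38 it had 531, 318 and 325 FPKM.

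*VviF3H* (VIT_204s0023g03370, chromosome 4, 19929438 to 19931447), flavanone 3-hydroxylase, followed the same course. Its level was 298, 347 and 307 FPKM at E-L 36, against 116, 128 and 114 FPKM at E-L 35, without overlap, and 160, 74.5 and 72.3 FPKM at E-L 38. The rise was 1.57 ± 0.33 (adjusted p = 0.000463, edgeR). A pair of other genes annotated as F3H went the opposite way. VIT_202s0025g02960 had 4.66, 1.72 and 2.46 FPKM at E-L 36, against 31.4, 28.7 and 10.8 at E-L 35, and fell by 2.90 ± 0.43 (adjusted p = 5.2e-06, edgeR), and VIT_213s0047g00210, with 0.87, 0.99 and 1.37 FPKM at E-L 36 against 5.89, 7.22 and 4.39 at E-L 35, fell by 2.23 ± 0.28 (adjusted p = 4.9e-07, edgeR). The stages did not overlap in either gene, and in FPKM both lay far below VIT_204s0023g03370.

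The first enzyme of the pathway, PAL, is encoded by 11 listed genes, with a median change of 0.86. All 11 fitted changes were above 0, also with RLE size factors, in DESeq2 and on the FPKM scale in limma, where the median was 0.59. Their summed level was 444, 370 and 400 FPKM at E-L 36, against 194, 200 and 237 FPKM at E-L 35. Only VIT_213s0019g04460 was called among them. It had 135, 169 and 156 FPKM at E-L 36, against 53.4, 56.3 and 53.7 FPKM at E-L 35, all 3 libraries being higher, with a change of 1.65 ± 0.44 (adjusted p = 0.00384, edgeR). Its call in edgeR held in 1 of the 6 fits without 1 library (adjusted p = 0.00609 without E-L 36 replicate 1, and up to 0.0168, without E-L 35 replicate 1). The *VviPAL* genes on chromosome 16 lie in a cluster of copies, among which short reads can be divided in error.

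*VviCHS1* (VIT_214s0068g00920) had 216, 271 and 253 FPKM at E-L 36, against 95.5, 97.9 and 96.6 FPKM at E-L 35. The libraries did not overlap, and the change of 1.51 ± 0.44 was called (adjusted p = 0.0084, edgeR), but it was lost in every fit without 1 library (adjusted p = 0.0114 to 0.0297, highest without E-L 35 replicate 1) and in DESeq2 and limma. A chalcone isomerase, VIT_213s0067g02870, with 50.2, 58.5 and 56.6 FPKM at E-L 36 against 35.2, 29.6 and 25.3 at E-L 35, rose by 1.03 ± 0.17 (adjusted p = 2.8e-05, edgeR), and its change stood at 0.93 in the lowest fit without 1 library, under the 2-fold limit without E-L 35 replicate 3 or E-L 36 replicate 2. It was not called on the FPKM scale in limma either. None of the 3 C4H and 4 4CL genes was called.

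Of the 8 B-ring hydroxylases, 4 rose and 1 fell, and their median was 1.23. The 5 called make up 62.5% of the list. Those that rose were all F3′5′H, which directs the pathway to delphinidin-type anthocyanins, and the one that fell was an F3′H, which directs it to the cyanidin type. The 6 F3′5′H genes lie in one cluster on chromosome 6 and are close copies, among which short reads can be divided in error. The fitted changes of all 6 were above 0 under each scaling. Their summed level was 223, 386 and 325 FPKM at E-L 36, against 144, 148 and 139 FPKM at E-L 35, so that every library of E-L 36 was higher while replicate 1 exceeded E-L 35 least. VIT_206s0009g02810, with 68.3, 114 and 89.7 FPKM at E-L 36 and 39.3, 33.9 and 32.8 at E-L 35, rose by 1.52 ± 0.37 (adjusted p = 0.00218, edgeR). VIT_206s0009g03000 (7.56, 16.4 and 12.2 FPKM at E-L 36, against 3.18, 1.46 and 2.85 at E-L 35) rose by 2.38 ± 0.62 (adjusted p = 0.00363, edgeR), and VIT_206s0009g03010 (21.1, 33.9 and 33.8 FPKM, against 8.11, 9.78 and 9.77) by 1.85 ± 0.54 (adjusted p = 0.00845, edgeR). These last 2 gene models abut with 0 bases between them.

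The F3′5′H calls were not stable against leaving out a library. VIT_206s0009g02810 kept its call in 3 of 6 such fits (adjusted p up to 0.0161, without E-L 36 replicate 2, and also lost without E-L 35 replicate 2 or 3), and VIT_206s0009g03000 and VIT_206s0009g03010 kept theirs only without E-L 36 replicate 1, with adjusted p up to 0.0244 (without E-L 35 replicate 2) and 0.0378 (without E-L 35 replicate 1). The remaining called gene, VIT_206s0009g02970, also kept its call only without E-L 36 replicate 1. Its adjusted p went up to 0.0365, without E-L 36 replicate 2 (edgeR). In DESeq2, VIT_206s0009g02810 and VIT_206s0009g03010 were not called.

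The F3′H gene VIT_203s0063g01690 (chromosome 3, 5037094 to 5039672) showed the smallest p of the listed genes. It had 1.2, 1.19 and 1.43 FPKM at E-L 36, against 17.7, 17.3 and 19.1 FPKM at E-L 35. All libraries of E-L 36 were far below those of E-L 35, and the gene fell by 3.65 ± 0.22 (adjusted p = 3.6e-12, edgeR), to stay at 0.75 to 1.18 FPKM at E-L 38. The other F3′H made up most of the F3′H signal, which was 46.2 ± 5.66 FPKM at E-L 36 and 55 ± 0.972 FPKM at E-L 35 in sum. The ratio of summed F3′5′H to summed F3′H was 4.3, 9.54 and 7.01 at E-L 36, against 2.68, 2.67 and 2.5 at E-L 35, without overlap, and 19.2, 9.91 and 6.78 at E-L 38. These ratios were not tested.

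In the list of DFR and LDOX, which reduce dihydroflavonols and form anthocyanidins, 2 of 8 genes rose and 1 fell, with a median of -0.37. *VviLDOX* (VIT_202s0025g04720, chromosome 2, 4282027 to 4284085) had 249, 310 and 283 FPKM at E-L 36, against 140, 152 and 118 FPKM at E-L 35, and 119, 66.6 and 63.6 FPKM at E-L 38. E-L 36 was the highest of the stages, and the rise over E-L 35 was 1.20 ± 0.24 (adjusted p = 0.00031, edgeR). A DFR gene, VIT_219s0014g04980, rose by 1.17 ± 0.17 (adjusted p = 4.9e-06, edgeR), with 47.9, 50.6 and 51.4 FPKM at E-L 36 and 27.1, 26.4 and 20.9 FPKM at E-L 35, but was not called on the FPKM scale in limma. VIT_215s0048g01010, also annotated as DFR, fell by 1.27 ± 0.22 (adjusted p = 3.8e-05, edgeR), with 2.89, 2.43 and 2.95 FPKM at E-L 36 and 7.39, 7.42 and 7.55 FPKM at E-L 35. Both had stages that did not overlap.

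Of 7 genes that modify anthocyanins, 2 rose and 1 fell. *VviUFGT* (VIT_216s0039g02230, chromosome 16, 2332463 to 2334702) is the glucosyltransferase that stabilises anthocyanins. It had 117, 130 and 123 FPKM at E-L 36, against 52.5, 49.8 and 43.2 FPKM at E-L 35. The lowest library of E-L 36 was above the highest of E-L 35, and the rise was 1.51 ± 0.17 (adjusted p = 1.2e-07, edgeR). At E-L 38 the level was 57.9, 43.6 and 43.4 FPKM, close to that of E-L 35.

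*Vvi3AT* (VIT_203s0017g00870), the anthocyanin acyltransferase, had 44.8, 60 and 50.7 FPKM at E-L 36, against 26.4, 31.2 and 26.4 FPKM at E-L 35. It was higher in 3 of 3 libraries, with a change of 1.05 ± 0.27 (adjusted p = 0.00305, edgeR) that was called in 3 of 6 fits without 1 library (adjusted p up to 0.0201, without E-L 36 replicate 2, and lost also without E-L 35 replicate 1 or 3). Of the 3 AOMT genes, anthocyanin O-methyltransferases, none was called, and the most abundant, VIT_201s0010g03510, with 106, 138 and 124 FPKM at E-L 36 and 88.6, 71 and 55.4 at E-L 35, passed the adjusted p but not the 2-fold limit (0.94 ± 0.26, adjusted p = 0.00596, edgeR). VIT_205s0062g00310, a glucosyltransferase listed as 53GT, had 1.04, 0.34 and 0.69 FPKM at E-L 36, against 12.3, 13.8 and 2.01 FPKM at E-L 35, where replicate 3 was far below the other libraries. Its fall of 3.64 ± 1.04 (adjusted p = 0.0067, edgeR) held only without E-L 35 replicate 3 among the fits without 1 library (adjusted p up to 0.0366, without E-L 36 replicate 2).

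**Figure D2:**
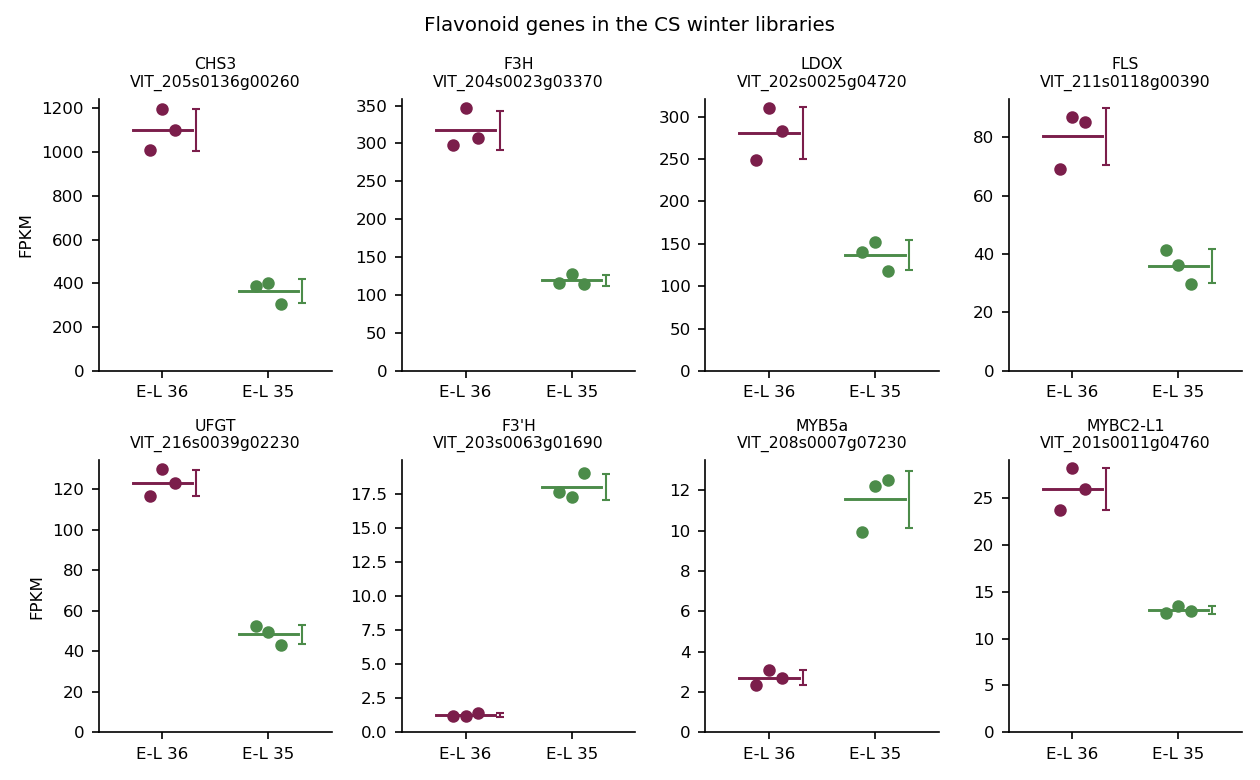
FPKM of 8 flavonoid genes in the CS winter libraries, with E-L 36 left and E-L 35 right in each panel. Points are libraries (n = 3 a stage), horizontal bars are means and the error bars beside them are SD. *VviCHS3*, *VviF3H*, *VviLDOX*, FLS, *VviUFGT* and *VviMYBC2-L1* lie higher at E-L 36 without overlap, and F3′H VIT_203s0063g01690 and *VviMYB5a* lie lower.

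The branches to flavonols and flavan-3-ols held 1 called gene together. FLS VIT_211s0118g00390 (chromosome 11, 6060124 to 6074364) is annotated as a flavonol synthase. Of the known FLS genes, the study describes only *VviFLS4* and *VviFLS5* as expressed. VIT_211s0118g00390 had 69.1, 86.8 and 85.1 FPKM at E-L 36, against 41.4, 36.4 and 29.9 FPKM at E-L 35, and 14.8, 15.3 and 17.1 FPKM at E-L 38. E-L 36 was above both other stages in every library, and the rise over E-L 35 was 1.33 ± 0.14 (adjusted p = 3.5e-08, edgeR). *VviFLS5* had 6.1, 5.81 and 5.57 FPKM at E-L 36 and 5.24, 5.78 and 6.22 FPKM at E-L 35, and was not called (0.26 ± 0.20, adjusted p = 0.339, edgeR). *VviFLS4* had 0.36, 0.25 and 0.22 FPKM at E-L 36, was at 0 in all 3 libraries of E-L 35 and reached 12.9, 7.14 and 5.65 FPKM at E-L 38. Against a limit of 3 counts a library it was at least 1.57-fold higher at E-L 36, and the difference was not called (adjusted p = 0.0173, edgeR). Among *VviANR*, *VviLAR1* and *VviLAR2* no gene was called. Their fitted changes were -0.87, 0.13 and 0.21, with 1 unadjusted p under 0.05 in edgeR, that of *VviANR*.

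No stilbene synthase was called either. Fitted changes of the 24 genes ran between -0.39 and 1.10, with 20 above 0 (18 on the FPKM scale), a median of 0.59, no unadjusted p under 0.05 and a lowest adjusted p of 0.392 in edgeR. Their summed level was 727, 381 and 475 FPKM at E-L 36, against 371, 369 and 460 FPKM at E-L 35. Replicate 1 of E-L 36 was high, replicate 2 lay within the range of E-L 35 and replicate 3 just above it. *VviMYB14* and *VviMYB15*, regulators of stilbene synthesis, were not called, with -0.07 ± 0.71 and 0.12 ± 0.31.

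Among 17 regulators of flavonoid and stilbene genes that could be tested, 2 rose and 3 fell at E-L 36. The MYBA genes of the colour locus on chromosome 2, where *VviMYBA1* and *VviMYBA2* are known activators of *VviUFGT*, were not called. *VviMYBA2* had 129, 161 and 152 FPKM at E-L 36, against 112, 111 and 98.3 FPKM at E-L 35 (0.62 ± 0.45, adjusted p = 0.292, edgeR), and *VviMYBA3* had 47.5, 63.6 and 52.2 FPKM, against 43.8, 33.8 and 30.3 FPKM (0.75 ± 0.37, adjusted p = 0.12, edgeR). Every library of E-L 36 exceeded every library of E-L 35 in both genes, but not beyond the test's limits. The 2 models annotated as *VviMYBA1* had 0.73 ± 0.44 and 0.71 ± 0.49.

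The genes that rose have opposite known roles. *VviMYBC2-L1* (VIT_201s0011g04760), a MYB repressor of flavonoid synthesis, had 23.7, 28.2 and 25.9 FPKM at E-L 36, against 12.7, 13.5 and 12.9 FPKM at E-L 35, and rose by 1.15 ± 0.15 without overlap (adjusted p = 6.8e-07, edgeR), though it was not called on the FPKM scale in limma. *VviMYBPA1* (VIT_215s0046g00170), an activator of proanthocyanidin genes, had 6.14, 5.41 and 5.91 FPKM at E-L 36, against 2.21, 3.61 and 1.97 FPKM at E-L 35. Its rise of 1.33 ± 0.34 (adjusted p = 0.00288, edgeR) was lost without E-L 35 replicate 1 or replicate 3 (adjusted p up to 0.0217, without replicate 3). Another repressor, *VviMYBC2-L3*, had 1.78, 2.57 and 2.67 FPKM at E-L 36, against 0.43, 0.38 and 1.0 FPKM at E-L 35, and was not called (2.11 ± 0.68, adjusted p = 0.0171, edgeR). *VviMYB4a*, which represses small phenolic compounds, changed by 0.43 ± 0.13, under 2-fold.

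*VvibZIPC22* (VIT_207s0005g01450, chromosome 7, 3987031 to 3988120), a bZIP factor of flavonoid genes, had 15, 14 and 14.7 FPKM at E-L 36, against 81.7, 80.3 and 60.6 FPKM at E-L 35, and 17.1, 15.5 and 19.4 FPKM at E-L 38. All libraries of E-L 36 and E-L 38 lay below those of E-L 35, and the fall at E-L 36 was 2.19 ± 0.27 (adjusted p = 2.5e-07, edgeR). *VviMYB5a*, an early regulator of the flavonoid pathway, fell by 1.93 ± 0.19 (adjusted p = 8.5e-09, edgeR), with 2.33, 3.07 and 2.7 FPKM at E-L 36 and 9.93, 12.2 and 12.5 FPKM at E-L 35. Its relative *VviMYB5b* changed by 0.53 ± 0.11, under 2-fold. *VviMYBF1*, the flavonol regulator, was low, with 0.35, 0.2 and 0.1 FPKM at E-L 36 and 0.99, 0.7 and 1.18 FPKM at E-L 35. Its fall of 2.08 ± 0.62 (adjusted p = 0.00873, edgeR) held only without E-L 36 replicate 1 among the fits without 1 library (adjusted p up to 0.0729, without E-L 36 replicate 3), and it was lost in limma and without the filter on low counts. The partners *VviMYC1*, *VviMYCA1* and *VviWDR1* were not called, at 0.12, -0.38 and -0.15.

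UV-B is perceived by *VviUVR1*, the photoreceptor, which acts with the ubiquitin ligase COP1 on the factors HY5 and HYH. Of these 5 genes only *VviUVR1* (VIT_207s0031g02560, chromosome 7, 18802163 to 18814628) was called. Its level was 4.83, 5.24 and 5.75 FPKM at E-L 36, against 14.6, 15.5 and 14.4 FPKM at E-L 35, and 6.51, 6.08 and 6.12 FPKM at E-L 38. The lowest library of E-L 35 lay far above the highest of E-L 36, and the fall was 1.33 ± 0.13 (adjusted p = 1.2e-08, edgeR). *VviCOP1-2*, with 5.07, 4.32 and 4.5 FPKM at E-L 36 and 8.5, 8.86 and 8.77 FPKM at E-L 35, also did not overlap, but its change of -0.67 ± 0.11 (adjusted p = 2.3e-05, edgeR) was under 2-fold. *VviHY5* (0.16), *VviHYH* (-0.35) and *VviCOP1-1* (-0.14) were not called.

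Among the 35 genes of ABA synthesis and signalling, 2 rose and 4 fell at E-L 36, which is 17.1% of the list, and the median was -0.38. *VviNCED3* (VIT_219s0093g00550, chromosome 19, 17645348 to 17647649), a 9-cis-epoxycarotenoid dioxygenase that cleaves the ABA precursor, had 24.9, 19.3 and 22.8 FPKM at E-L 36, against 95.8, 87.6 and 90.5 FPKM at E-L 35, and 18.8, 11.6 and 10.8 FPKM at E-L 38. The gene fell by 1.88 ± 0.29 (adjusted p = 8.0e-06, edgeR), with all libraries of E-L 36 below those of E-L 35. *VviNCED2* (-1.11 ± 0.36, adjusted p = 0.0179, edgeR) and *VviNCED6* (0.22 ± 0.32) were not called.

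Downstream of ABA, the receptors (PYR/PYL) inhibit PP2C phosphatases, which otherwise hold back SnRK2 kinases and ABF transcription factors. The receptor gene VIT_215s0046g01050 had 3.26, 4.33 and 3.77 FPKM at E-L 36, against 12.7, 10.9 and 11.6 FPKM at E-L 35, fell by 1.47 ± 0.13 (adjusted p = 2.4e-09, edgeR) and was back at 12.5 to 13.4 FPKM at E-L 38. Its E-L 36 libraries were the lowest of the 3 stages. PP2C VIT_216s0050g02680 (chromosome 16, 19697155 to 19699942) had 25.4, 25.8 and 24.9 FPKM at E-L 36, against 5.92, 6.34 and 5.67 FPKM at E-L 35, and rose by 2.24 ± 0.31 (adjusted p = 1.7e-06, edgeR). Replicates of a stage were within 1 FPKM of each other, and at E-L 38 the level was 12, 4.49 and 3.38 FPKM. Another PP2C, VIT_207s0129g00520, fell by 1.71 ± 0.34 (adjusted p = 0.000231, edgeR), with 2.6, 1.65 and 1.71 FPKM at E-L 36 and 6.9, 9.4 and 5.18 FPKM at E-L 35. The ABF gene VIT_212s0028g01380 had 1.17, 1.97 and 1.44 FPKM at E-L 36, against 0.37, 0.44 and 0.38 FPKM at E-L 35, where no library had more than 3 counts. It was called higher (2.10 ± 0.50, adjusted p = 0.00144, edgeR), but not on the FPKM scale in limma. With 51 counts at E-L 36 and 9 at E-L 35, the ratio of summed counts scaled by library size was 4.45, with an exact 95% interval of 2.17 to 10.3 that covers counting error only.

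In the ethylene list 2 of 21 genes rose and 3 fell, with a median of -0.44. *VviACO3* (VIT_211s0016g02380, chromosome 11, 1906128 to 1908045), an ACC oxidase that makes ethylene, had the largest rise of the 48 called members. It had 47.8, 49.5 and 47.8 FPKM at E-L 36, against 7.8, 6.35 and 3.02 FPKM at E-L 35, and 10.4, 6 and 5.97 FPKM at E-L 38. Thus E-L 36 stood above both other stages, and the rise over E-L 35 was 3.22 ± 0.41 (adjusted p = 5.2e-07, edgeR). *VviACO1*, *VviACO2* and *VviACS2* were not called, at -0.59, -0.31 and -0.57.

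Signalling genes of ethylene moved in both directions. The F-box gene EBF1/2 (VIT_207s0031g00340), which removes the EIN3 factor, had 9.83, 9.09 and 8.7 FPKM at E-L 36, against 4.58, 4.63 and 3.5 FPKM at E-L 35, and rose by 1.28 ± 0.16 (adjusted p = 4.4e-07, edgeR), a call not made on the FPKM scale in limma. SIMKK VIT_217s0000g01970, a kinase of the pathway, with 17.4, 15.8 and 18.2 FPKM at E-L 36 and 45.1, 43 and 41.5 FPKM at E-L 35, fell by 1.17 ± 0.25 (adjusted p = 0.000498, edgeR). The ethylene response factor VIT_202s0234g00130 had 38, 20.1 and 25.7 FPKM at E-L 36, against 119, 121 and 75.9 FPKM at E-L 35, and fell by 1.76 ± 0.38 (adjusted p = 0.00063, edgeR). None of these 3 genes had overlapping stages. CTR1 VIT_217s0000g08240, a kinase that represses ethylene responses, had 1.61, 1.11 and 1.29 FPKM at E-L 36, against 4.12, 3 and 3.52 FPKM at E-L 35. Its fall of 1.27 ± 0.30 (adjusted p = 0.00151, edgeR) was lost without E-L 35 replicate 1, E-L 36 replicate 2 or E-L 36 replicate 3 (adjusted p up to 0.0131, without E-L 36 replicate 2).

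Auxin gave the longest list, in which 3 of 51 genes rose and 9 fell, 23.5% in all, with a median of -0.33. *VviTAR3*, one of the tryptophan aminotransferases of auxin synthesis, fell by 2.44 ± 0.44 (adjusted p = 7.6e-05, edgeR), with 0.19, 0.31 and 0.33 FPKM at E-L 36 and 1.12, 2.07 and 2.09 FPKM at E-L 35. The far more abundant *VviTAR1* had 115, 160 and 142 FPKM at E-L 36, against 26.7, 30.2 and 43.4 FPKM at E-L 35. It did not overlap between the stages, but was not called (2.22 ± 0.69, adjusted p = 0.0121, edgeR). An auxin influx carrier of the AUX1 family, VIT_202s0025g01230, had 7.01, 9.04 and 9.17 FPKM at E-L 36, against 2.14, 2.07 and 2.68 FPKM at E-L 35, and rose by 2.05 ± 0.24 without overlap (adjusted p = 1.1e-07, edgeR).

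AUX/IAA proteins repress auxin responses, and 4 of the 11 listed genes fell while none rose. VIT_207s0141g00270 had 2.21, 2.27 and 2.25 FPKM at E-L 36, against 17.7, 18.9 and 11.4 FPKM at E-L 35, and fell by 2.66 ± 0.43 (adjusted p = 1.8e-05, edgeR). VIT_205s0020g04670 had 10.8, 13.6 and 14 FPKM at E-L 36, against 36.9, 39.2 and 63.9 FPKM at E-L 35, and fell by 1.70 ± 0.20 (adjusted p = 2.4e-07, edgeR). Both were high again at E-L 38, with 23.9, 14.3 and 15.9 FPKM for VIT_207s0141g00270 and 60.8, 73.8 and 78.5 FPKM for VIT_205s0020g04670, so that E-L 36 was the lowest stage. VIT_205s0020g01070 had 0.14, 0.11 and 0.08 FPKM at E-L 36, against 1.22, 0.72 and 0.5 FPKM at E-L 35, and was not called (adjusted p = 0.0201, edgeR).

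GH3 enzymes conjugate auxin to amino acids, and the 3 called genes divided in direction. VIT_203s0091g00310, the most abundant, had 42.8, 35.3 and 38.9 FPKM at E-L 36, against 102, 103 and 78.3 FPKM at E-L 35, and fell by 1.13 ± 0.23 (adjusted p = 0.000342, edgeR). VIT_207s0104g00800, with 10.2, 9 and 8.78 FPKM at E-L 36 and 3.58, 4.73 and 4.02 FPKM at E-L 35, rose by 1.33 ± 0.15 (adjusted p = 1.1e-07, edgeR). VIT_201s0150g00300 had under 1 FPKM in all 6 libraries, and its fall of 2.50 ± 0.57 (adjusted p = 0.000995, edgeR) was lost without E-L 35 replicate 3 or E-L 36 replicate 3 (adjusted p up to 0.0149, without E-L 36 replicate 3). The auxin response factor VIT_200s1203g00010 was at 0 in the libraries of E-L 36 and had 0.2, 0.3 and 0.58 FPKM at E-L 35. It was called lower (adjusted p = 0.00174, edgeR), but at a limit of 3 counts a library the data show only that it was at least 1.01-fold lower, and the call was lost without E-L 35 replicate 3 or E-L 36 replicate 3 (adjusted p = 0.02 without E-L 36 replicate 3), in a fit of only the 6 libraries and in limma. None of 10 SAUR genes was called.

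**Figure D3:**
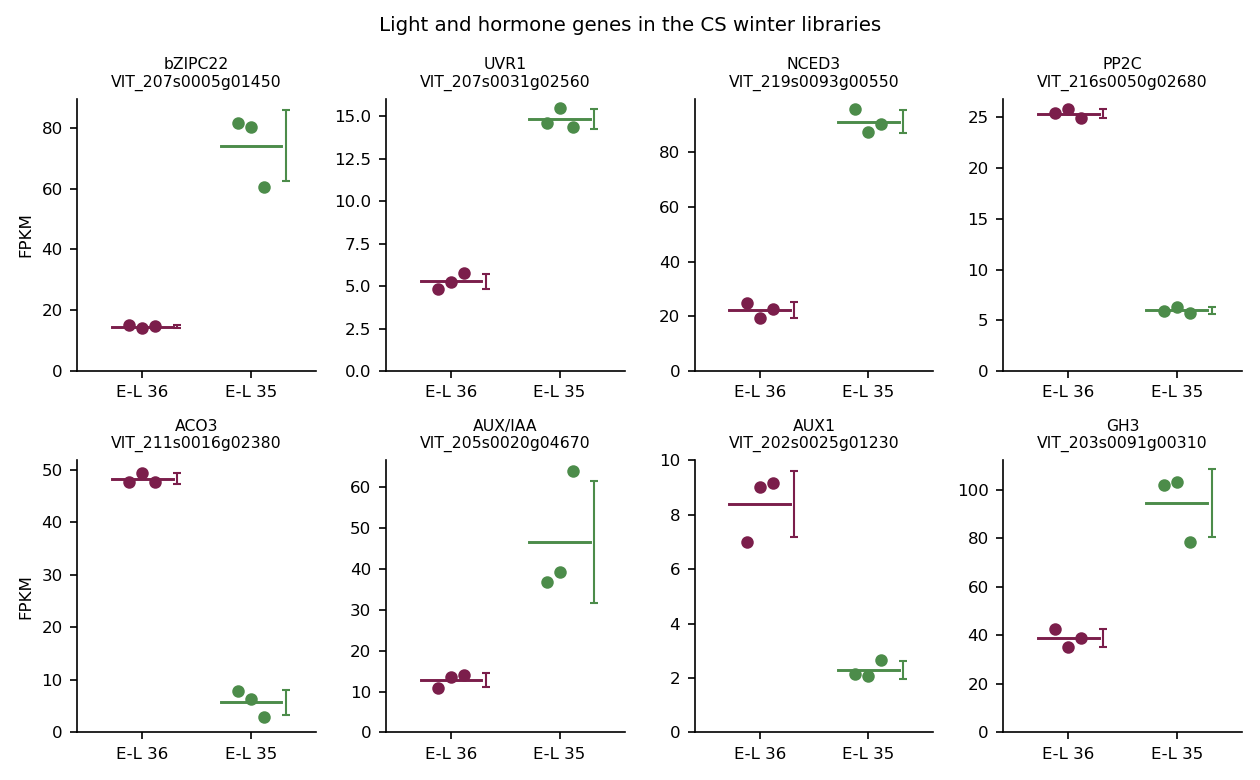
FPKM of 8 genes of light and hormone pathways in the CS winter libraries, with E-L 36 left and E-L 35 right in each panel. Points are libraries (n = 3 a stage), horizontal bars are means and the error bars beside them are SD. PP2C VIT_216s0050g02680, *VviACO3* and AUX1 VIT_202s0025g01230 lie higher at E-L 36, the other 5 genes lie lower, and in no panel do the stages overlap.

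How the change at E-L 36 compared with that in the other crop and the other cultivar was asked with a test of the difference between changes, in edgeR, where an adjusted p no higher than 0.01 was taken as a difference. The change in CS winter differed from that in CS summer for 3341 transcripts, 16.6% of those tested (8.63% with a higher and 7.92% with a lower change in CS winter), and for 42 of the 212 listed genes (19.8%). It differed from the change in Riesling winter for 444 transcripts, 2.2% (0.852% with a higher and 1.35% with a lower change in CS winter), and for 15 listed genes (7.08%). Each test was adjusted on its own, so that the same limit was stricter on the unadjusted p for Riesling winter. For VIT_204s0008g01560 against CS summer, 0.000885 became 0.00612 in edgeR. For VIT_206s0004g05660 against Riesling winter, 0.000832 became 0.0221 in edgeR. In CS summer itself 6.51% of the transcripts were called at E-L 36, 295 higher (1.46%) and 1018 lower (5.04%), and in Riesling winter 10.1%, 834 higher (4.13%) and 1214 lower (6.01%). Of the transcripts that rose in CS winter, 35 also rose in CS summer, 4.59% of the CS winter set and 11.9% of the CS summer set, and 38 fell there. With Riesling winter, 326 higher transcripts were shared, 42.8% of the CS winter set and 39.1% of the Riesling winter set. For lower transcripts the shared number was 244 with CS summer (21.5% of the CS winter and 24% of the CS summer set) and 475 with Riesling winter (41.9% and 39.1%). No library entered more than one of these changes. Crop, calendar time of sampling and the treatments at pruning cannot be told apart.

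*VviACO3* had one of the largest differences from the summer crop. Its change in CS winter exceeded that in CS summer by 4.73 ± 0.63 on the log2 scale (adjusted p = 2.8e-06, edgeR). In CS summer it had 1.25 ± 0.826 FPKM at E-L 36 and 3.74 ± 0.739 FPKM at E-L 35 (SD, n = 3 each), whereas in Riesling winter it had 55 ± 1.41 FPKM at E-L 36 and 2.52 ± 1.69 FPKM at E-L 35. PP2C VIT_216s0050g02680 differed from CS summer by 4.55 ± 0.53 (adjusted p = 4.1e-07, edgeR), as it fell in CS summer, to 0.433 ± 0.24 FPKM at E-L 36, against 2.17 ± 0.508 FPKM at E-L 35, and rose in Riesling winter, with 25.6 ± 3.18 FPKM at E-L 36 and 0.947 ± 0.275 FPKM at E-L 35. Both genes thus rose in the winter crops of the 2 cultivars, the PP2C gene less in CS winter than in Riesling winter, with a difference of -2.63 ± 0.48 (adjusted p = 0.00113, edgeR).

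*VviUFGT* rose more in CS winter than in CS summer, by 1.02 ± 0.24 (adjusted p = 0.00209, edgeR). Its level in CS summer was 53.1 ± 4.66 FPKM at E-L 36 and 39.9 ± 7.92 FPKM at E-L 35, and in Riesling winter it was 9.47 ± 0.735 FPKM at E-L 36 and 7.63 ± 0.463 FPKM at E-L 35. FLS VIT_211s0118g00390 differed by 2.14 ± 0.20 (adjusted p = 9.0e-09, edgeR), DFR VIT_219s0014g04980 by 1.57 ± 0.24 (adjusted p = 1.5e-05, edgeR) and *VviMYBC2-L1* by 1.67 ± 0.21 (adjusted p = 1.2e-06, edgeR). All 3 were called higher in CS winter and not called in CS summer, where their fitted changes were -0.81, -0.40 and -0.51. For *VviCHS3* (1.69 ± 0.52, adjusted p = 0.0154) and *VviF3H* VIT_204s0023g03370 (1.39 ± 0.46, adjusted p = 0.0261) the difference from CS summer was not called in edgeR. In CS summer *VviCHS3* had 190 ± 19.9 FPKM at E-L 36 and 190 ± 24.4 FPKM at E-L 35.

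*VviUVR1* was called lower in CS winter and in neither other comparison, and its change was lower than that in CS summer by 1.43 ± 0.18 (adjusted p = 1.3e-06, edgeR) and than that in Riesling winter by 0.90 ± 0.18 (adjusted p = 0.00287, edgeR). In CS summer it had 16.3 ± 0.888 FPKM at E-L 36 and 15.9 ± 1.17 FPKM at E-L 35. The difference from Riesling winter was lost on leaving out CS winter E-L 36 replicate 1 (adjusted p = 0.0108, edgeR) or without Riesling winter E-L 36 replicate 2. *VviCOP1-2* likewise differed from CS summer, with a difference of -1.43 ± 0.15 (adjusted p = 9.7e-08, edgeR), having 10.8 ± 0.711 FPKM at E-L 36 and 6.87 ± 0.572 FPKM at E-L 35 there.

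AUX/IAA VIT_205s0020g01070 showed the largest difference of the listed genes whose change differed from CS summer, at -5.76 ± 1.01 (adjusted p = 9.5e-05, edgeR). In CS summer it rose at E-L 36, with 6.08 ± 2.16 FPKM against 0.707 ± 0.404 FPKM at E-L 35, whereas in CS winter it reached 9.39, 15.5 and 12.9 FPKM only at E-L 38. VIT_207s0141g00270 (-2.80 ± 0.57, adjusted p = 0.000453) and VIT_205s0020g04670 (-1.73 ± 0.28, adjusted p = 3.7e-05) fell in CS winter and were not called in CS summer, with differences that were called in edgeR. AUX1 VIT_202s0025g01230 differed by 2.12 ± 0.33 (adjusted p = 1.6e-05, edgeR).

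For other genes no difference between the CS crops was called. *VvibZIPC22* fell by 2.15 in CS summer, and the difference of the changes was -0.05 ± 0.40 (adjusted p = 0.958, edgeR). ERF1/2 VIT_202s0234g00130 and SIMKK VIT_217s0000g01970 were called lower in all 3 comparisons, with differences from CS summer of -0.11 ± 0.54 and -0.09 ± 0.36. F3′H VIT_203s0063g01690 also fell in all 3, but most in CS winter, by a further 2.17 ± 0.31 relative to CS summer (adjusted p = 5.4e-06, edgeR) and by a further 1.63 ± 0.29 relative to Riesling winter (adjusted p = 0.00097, edgeR).

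Relative to the white cultivar, the change in CS winter differed for 15 listed genes, 3 with a higher and 12 with a lower change, and among the 4 MYBA models for *VviMYBA2* and *VviMYBA3*. The study describes *VviMYBA1* and *VviMYBA2* as without function in white grapes. It describes *VviMYBA3* as linked to berry colour by statistics alone. Transcript levels of these genes in Riesling therefore do not stand for activator function. *VviMYBA3* rose in Riesling winter, with 18.7 ± 3.23 FPKM at E-L 36 and 0.95 ± 0.286 FPKM at E-L 35, and its change in CS winter was lower by 3.66 ± 0.67 (adjusted p = 0.0011, edgeR). *VviMYBA2* had 81.1 ± 7.15 FPKM at E-L 36 and 7.04 ± 4.48 FPKM at E-L 35 in Riesling winter. Its difference of -3.09 ± 0.70 (adjusted p = 0.00676, edgeR) was kept in 2 of 12 fits without 1 library (adjusted p up to 0.0252, without Riesling winter E-L 35 replicate 2). For the *VviMYBA1* models the differences were -5.11 ± 2.21 (adjusted p = 0.175) and -2.72 ± 0.84 (adjusted p = 0.0483) and were not called in edgeR. F3′5′H VIT_206s0009g03010 was at 0 in all 3 Riesling winter libraries of E-L 36 and had 1.95 ± 2.08 FPKM at E-L 35. The difference of its change was called in edgeR (adjusted p = 0.002) and was lost without Riesling winter E-L 35 replicate 3 (adjusted p = 0.0182).

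**Figure D4:**
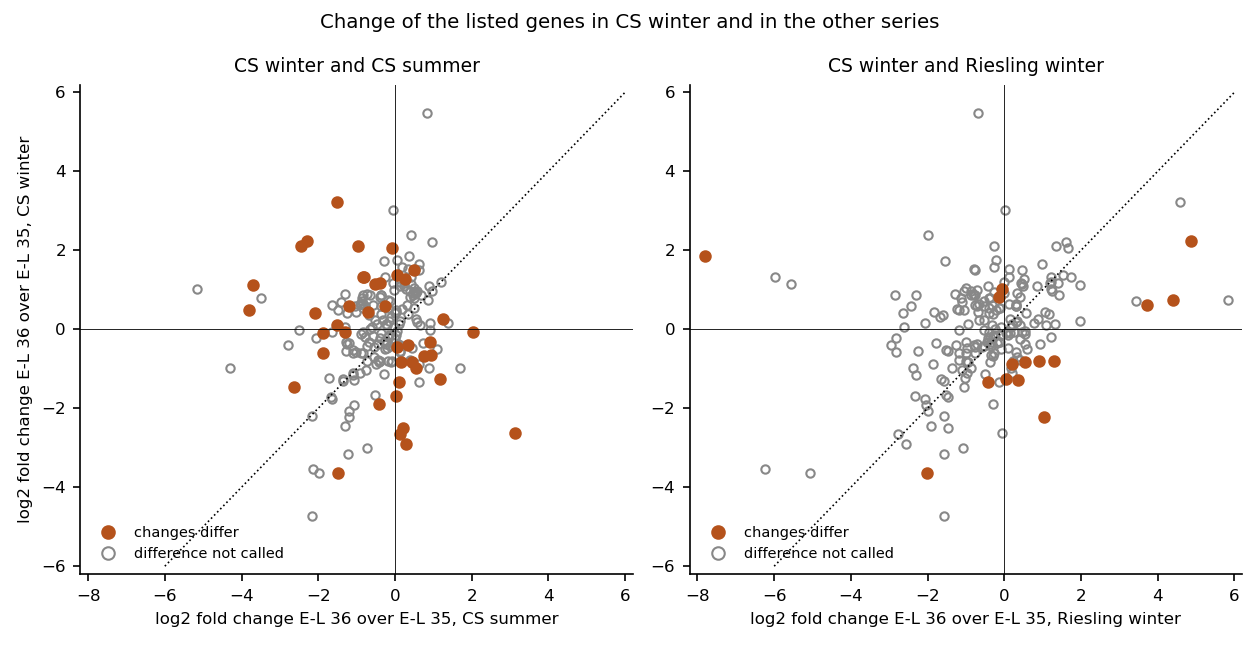
Fitted log2 fold change of E-L 36 over E-L 35 for the 212 listed genes tested, with CS winter on the vertical axis and CS summer (left) or Riesling winter (right) on the horizontal axis. Filled points are genes whose changes differed with an adjusted p no higher than 0.01, 42 from CS summer and 15 from Riesling winter, and the dotted line marks equal changes.

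Outside the lists, the gene with the largest fitted rise among those with at least 5 FPKM at E-L 36 was VIT_204s0008g01560, with 6.81, 2.89 and 6.33 FPKM at E-L 36 and 0 in all libraries of E-L 35, at least 6.79-fold higher at the limit of 3 counts a library. VIT_213s0019g00860 had 23.6, 33.3 and 30.7 FPKM at E-L 36, against 2.17, 2.17 and 1 FPKM at E-L 35, and rose by 4.20 ± 0.51 (adjusted p = 2.6e-07, edgeR). Of those that fell, VIT_204s0008g05640 had 0.44, 0.5 and 0.32 FPKM at E-L 36, against 24.8, 19.5 and 28.7 FPKM at E-L 35 (-5.71 ± 0.64, adjusted p = 7.1e-08, edgeR). VIT_200s0480g00080, with 0.08, 0 and 0.39 FPKM at E-L 36 and 8.27, 9.66 and 8.93 FPKM at E-L 35, fell by 5.27 ± 1.13 (adjusted p = 0.000813, edgeR). With 2 counts at E-L 36 and 70 at E-L 35, its ratio of E-L 35 over E-L 36 in scaled counts was 44.6 (exact 95% interval 11.9 to 375, counting error only). The sources used here give no gene names for these identifiers.

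VIT_204s0008g01560 lies in a run of 11 neighbouring genes on chromosome 4, from 1213544 to 1252699 in genome 12X V2 (39.2 kb), all of which rose in CS winter berries, with fitted changes of 1.97 to 7.62 and a median of 3.41. The 7.62 (SE 1.86) is that of VIT_204s0008g01560, a fitted value that depends on the prior count, since E-L 35 was at 0. The other genes lay at 3.88 or below. The call of VIT_204s0008g01560 was kept in 5 of 6 fits without 1 library. The run was picked after the values were seen and is given as a description. Its summed level was 671, 768 and 695 FPKM at E-L 36, against 90.4, 88.9 and 47.7 FPKM at E-L 35, and 128, 44.2 and 42.5 FPKM at E-L 38, so that the genes were high at E-L 36 alone in this crop. In CS summer the sum was 522, 882 and 526 FPKM at E-L 36, against 742, 693 and 686 FPKM at E-L 35, where the stages overlapped, the median was -0.29 and 1 of the 11 fell. The change of all 11 differed from that in CS summer. In Riesling winter all 11 rose, with a median of 3.56 and sums of 1016, 1035 and 1939 FPKM at E-L 36 and 197, 88.8 and 218 FPKM at E-L 35, and no difference from CS winter was called. Neighbouring genes can be copies that share reads, so that the values of single genes of the run are uncertain.

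**Figure D5:**
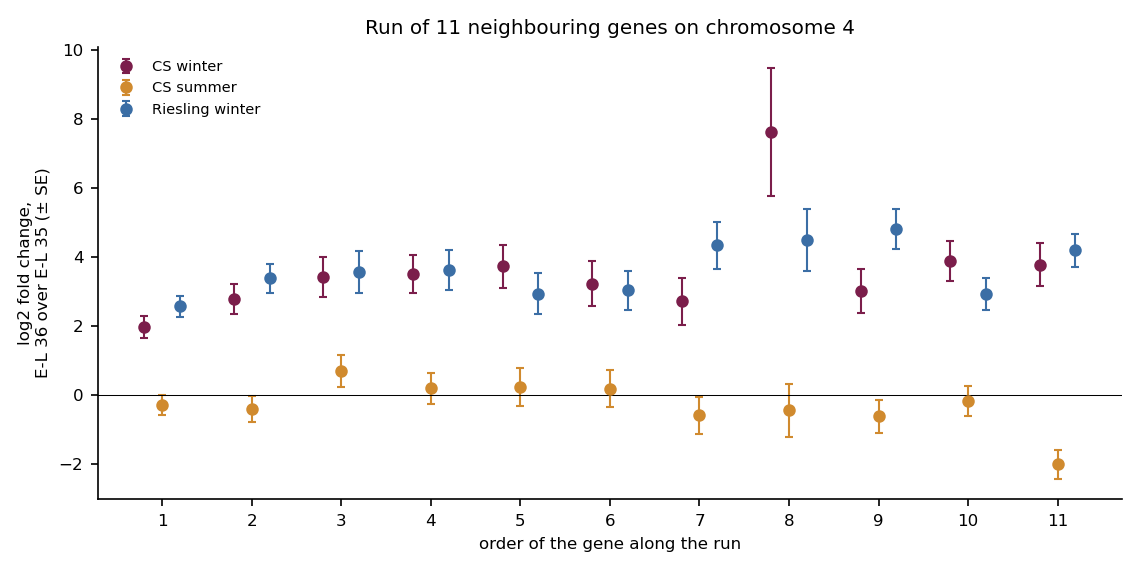
Fitted log2 fold change of E-L 36 over E-L 35 (± SE) for the 11 neighbouring genes on chromosome 4, in their order along the chromosome, in CS winter, CS summer and Riesling winter. CS winter values lie between 1.97 and 7.62 and Riesling winter values are also all above 0, while CS summer values scatter around a median of -0.29. The value of 7.62 is of a gene at 0 at E-L 35 and depends on the prior count.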

How the data were processed

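RNA of deseeded berries was sequenced by the authors as 50-bp single reads and aligned to the grapevine genome 12X V2 with no more than 2 mismatches, and the submitters' processing notes name Bowtie. Each library has a deposited table with expected counts, the estimated reads of a gene before any normalization, and with FPKM, which the authors computed from these by transcript length and library size. A gene without a row was taken as 0. A table of the whole series with 36 numbered columns that no label assigns to a library was left out. Groups and replicate numbers came from the sample labels.

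Expected counts were rounded to whole numbers and all 36 libraries of 12 conditions were fitted jointly in edgeR 4.0.16 (R 4.3.3) with filterByExpr, TMM factors and the quasi-likelihood test. DESeq2 1.42.0, which the study names with the same limits but without a design, limma 3.58.1 on log2(FPKM + 1), other filters and scalings, fits of fewer libraries, a replicate block and fits leaving out each library were alternatives. Each replicate is a pool of berries, and p-values measure the spread between such pools. In the joint fit this spread was estimated over all 36 libraries of 12 conditions. These include the CS winter harvest libraries, of which replicate 1 stood apart. The SE and p-value of a gene thus do not rest only on the libraries whose FPKM are printed beside them. The fit was tested on simulated data.

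The comparison and the lists were chosen with earlier results of these data known, and the lists come from tables of the study. Genes named are those that the study names by symbol, up to 4 further called genes a list by size of change, up to 10 listed genes by size of difference from CS summer, and 2 unnamed identifiers in each direction with the largest change. Listed genes that differed from another comparison are all named in the closing section. None of the identifiers matched the table of gene names used here (0 matched), so lists by keyword and markers of seed tissue were not used, and no sequence is given. Figures were drawn with matplotlib 3.10.9.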

Additional observations from a re-analysis of the deposited data

Results flagged for a closer look

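The change in CS winter differed from that in CS summer for 3341 transcripts and from that in Riesling winter for 444 (edgeR, adjusted p no higher than 0.01). The values below are differences of log2 changes, CS winter minus the other comparison, for listed genes that passed this test, and no cause was tested. Of the 42 listed genes that differed from CS summer, 23 had a higher and 19 a lower change in CS winter, and 31 kept the difference in every fit without 1 library. Of the 15 that differed from Riesling winter, 3 had a higher and 12 a lower change, and 7 kept it in every such fit.

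Relative to CS summer, the change in CS winter was higher for the hormone genes *VviACO3* (4.73), SAUR VIT_209s0002g00650 (4.83), PP2C VIT_216s0050g02680 (4.55), PP2C VIT_201s0150g00510 (4.29), ABF VIT_212s0028g01380 (3.05), GH3 VIT_207s0104g00800 (2.15), AUX1 VIT_202s0025g01230 (2.12), the receptor VIT_215s0046g01050 (1.17) and EBF1/2 (1.03), and also for SnRK2 VIT_207s0197g00080 (2.49), ARF VIT_210s0003g04100 (1.78), TIR1 VIT_200s0181g00040 (1.33) and VIT_207s0104g01320 (1.23) and SAUR VIT_203s0038g00940 (1.27). SAUR VIT_209s0002g00650 and PP2C VIT_201s0150g00510 were not called in CS winter itself and were called lower in CS summer. The difference of PP2C VIT_201s0150g00510 was lost without CS summer E-L 35 replicate 3 (adjusted p = 0.0101, edgeR). A lower change in CS winter was found for AUX/IAA VIT_205s0020g01070 (-5.76), VIT_207s0141g00270 (-2.80) and VIT_205s0020g04670 (-1.73), GH3 VIT_201s0150g00300 (-2.72), CTR1 VIT_217s0000g08240 (-2.44) and *VviNCED3* (-1.46), and also for the receptor VIT_214s0066g00275 (-2.11), PP2C VIT_201s0011g03910 (-1.58) and VIT_205s0020g01460 (-1.27), AUX1 VIT_213s0067g00330 (-1.24), AUX/IAA VIT_218s0001g08090 (-0.74) and SIMKK VIT_211s0016g01770 (-0.50). Of these, GH3 VIT_201s0150g00300 kept the difference in 5 and *VviNCED3* in 1 of 12 fits without 1 library (adjusted p up to 0.0346, without CS winter E-L 36 replicate 3, and 0.029, without CS summer E-L 35 replicate 3, edgeR). The receptor VIT_214s0066g00275 kept it in 2 of 12 (adjusted p up to 0.107, without CS winter E-L 35 replicate 2, edgeR). SIMKK VIT_211s0016g01770 kept it in 5, and PP2C VIT_201s0011g03910 and AUX/IAA VIT_218s0001g08090 in 6 each.

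Among flavonoid genes the change in CS winter was higher than in CS summer for *VviMYBC2-L3* (4.57), FLS VIT_211s0118g00390 (2.14), *VviMYBC2-L1* (1.67), *VviMYB15* (1.62), DFR VIT_219s0014g04980 (1.57), *VviMYB4a* (1.13) and *VviUFGT* (1.02), and also for RhaT1 VIT_200s0218g00170 (1.80) and DFR VIT_218s0001g12800 (0.82). It was lower for F3H VIT_202s0025g02960 (-3.18), F3′H VIT_203s0063g01690 (-2.17), *VviUVR1* (-1.43), *VviCOP1-2* (-1.43) and *VviFLS5* (-1.0), and also for LDOX VIT_208s0105g00380 (-1.53) and 4CL VIT_206s0061g00450 (-0.97). *VviMYB15* kept the difference in 1 and *VviFLS5* in 2 of 12 fits without 1 library (adjusted p up to 0.0271, without CS winter E-L 35 replicate 3, and 0.0207, without CS summer E-L 35 replicate 2, edgeR). RhaT1 VIT_200s0218g00170 and DFR VIT_218s0001g12800 each kept it in 6 of 12.

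Relative to Riesling winter the change in CS winter was higher for F3′5′H VIT_206s0009g03010 (9.64, a fitted value that depends on the prior count, since Riesling winter E-L 36 was at 0) and for the CHI genes VIT_213s0067g02870 (1.10) and VIT_213s0067g03820 (0.97), which kept it in 2 and 5 of 12 fits without 1 library. It was lower for *VviMYBA3* (-3.66), F3H VIT_213s0047g00210 (-3.28), *VviMYBA2* (-3.09), PP2C VIT_216s0050g02680 (-2.63), F3′H VIT_203s0063g01690 (-1.63), DFR VIT_215s0048g01010 (-1.32) and *VviUVR1* (-0.90), and also for SAUR VIT_210s0003g05755 (-2.09) and VIT_203s0038g01310 (-1.71), ABF VIT_205s0077g01140 (-1.64) and VIT_218s0001g10450 (-1.10) and the receptor VIT_202s0012g01270 (-1.40). The difference of DFR VIT_215s0048g01010 was kept in 3 of 12 fits without 1 library (adjusted p up to 0.0234, without Riesling winter E-L 36 replicate 2, edgeR). Differences were also lost in part of these fits for other genes. *VviMYBA2* kept it in 2 of 12, SAUR VIT_203s0038g01310 in 3, the receptor VIT_202s0012g01270 in 5, *VviUVR1* in 10 and F3′5′H VIT_206s0009g03010 in 11. With groups of 3 libraries no search for single outlying libraries was made.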

How the results depend on the processing

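The count of 1896 called transcripts (762 higher, 1134 lower) was 7304 (3578 higher, 3726 lower) at a limit of 0.05 on the adjusted p and none on the fold, and limma on log2(FPKM + 1) gave 348 higher. Without 1 library the numbers were 612 to 741 higher and 873 to 1061 lower. The 444 differences from Riesling winter became 842 in DESeq2, 499 in a fit of only the 12 libraries compared, 225 in those 12 with the replicate block and 273 to 482 without 1 library (273 without CS winter E-L 35 replicate 1, 283 without CS winter E-L 36 replicate 3), and the 3341 from CS summer became 4493 in a fit of only the 12 libraries, 3766 in those with the block and 2679 to 3371 without 1 library. No result reversed. On the FPKM scale limma ended the call in CS winter of 13 of the 48 called listed genes, namely *VviCHS1*, CHI VIT_213s0067g02870, DFR VIT_219s0014g04980, *Vvi3AT*, *VviMYBPA1*, *VviMYBF1*, *VviMYBC2-L1*, ABF VIT_212s0028g01380, CTR1, EBF1/2, AUX/IAA VIT_209s0002g04080, ARF VIT_200s1203g00010 and GH3 VIT_201s0150g00300. The fit of only the 12 libraries ended 3 listed differences from CS summer (GH3 VIT_201s0150g00300, PP2C VIT_201s0150g00510 and the receptor VIT_214s0066g00275) and 3 from Riesling winter (both CHI genes and SAUR VIT_203s0038g01310). Deviations of same-numbered libraries correlated with r = 0.092, -0.046 and 0.038. Replicate 1 correlated best with its own number, and replicate 2 did not. With 3 libraries a stage, these values cannot decide whether the replicate numbers pair the libraries. The block gave 2038 calls (818 higher, 1220 lower) where the same 6 libraries without it gave 2136. With the block, the calls of ABF VIT_212s0028g01380 and ARF VIT_200s1203g00010 were not made, nor were 7 of the 15 listed differences from Riesling winter, of which those of F3H VIT_213s0047g00210, DFR VIT_215s0048g01010, *VviUVR1* and ABF VIT_205s0077g01140 were called in the same libraries without it. Among the genes named by symbol or by size of change, calls in CS winter were also gained. A fit of only the 6 libraries added 6 such calls and ended 1, the replicate block added 5 and ended 2, and limma added 2. A gene given as not called can thus depend on the fit. Over the alternatives and fits without 1 library, the number called ranged between 4 and 9 for the upstream list, 1 and 6 for B-ring hydroxylases and 9 and 15 for auxin. Depth limits genes near 3 counts a library, such as *VviFLS4*, and 40 higher and 65 lower transcripts were at or under that limit at the other stage.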

Other observations

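In each library its own 10 most abundant transcripts took 16.11 to 16.76% of the counts at E-L 36 and 11.16 to 12.01% at E-L 35. The most abundant, VIT_205s0049g00520, changed by 1.01 ± 0.36 on the log2 scale and was not called (adjusted p = 0.0273, edgeR). VIT_205s0049g00760 of the same scaffold had rank 2 by mean share over the 6 libraries, with 0.81 ± 0.40 (adjusted p = 0.118, edgeR). Rank 6 was the ethylene response factor VIT_205s0049g00510, also of that scaffold, with 0.96 ± 0.35 (adjusted p = 0.031, edgeR). This factor carried 0.976 to 1.02% of the counts at E-L 36 and 0.514 to 0.637% at E-L 35. Of the 10 transcripts with the largest mean share over the 6 libraries, only VIT_219s0014g02740 was called. It fell to 0.383 to 0.404% at E-L 36, against 0.969 to 1.09% at E-L 35 (-1.21 ± 0.22, adjusted p = 6.8e-05, edgeR). These identifiers were picked by their share of counts.

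A second run of neighbours, on chromosome 4 from 3338865 to 3480352, held 7 genes that fell, with a median of -2.51. Its summed level was 19.2, 26.1 and 25.4 FPKM at E-L 36, against 124, 111 and 122 FPKM at E-L 35 in CS winter. In CS summer 5 of the 7 fell, with 21.1, 20.3 and 17.8 FPKM at E-L 36 and 57.6, 94.3 and 95.9 FPKM at E-L 35, and in Riesling winter 1 fell, with 41, 43.4 and 36.7 FPKM at E-L 36 and 53.8, 48.2 and 64.9 FPKM at E-L 35. The run was chosen after its values were seen, and its genes have no names in the sources used here.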
